A study of Homo sapiens with 6 samples.

Results

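The human miRNAs numbered miR-4417 to miR-4540 formed 142 of the 2549 human miRNA entries of the array, with both arms and lettered variants counted as entries. They were chosen by number alone, with no measured value in the rule. The measured material was exosomal miRNA from the established human ES cell line H9, precipitated with ExoQuick-TC from the medium of cultures on Matrigel in TeSR-E8. Substate 1 was the typical colony form, with strong R-10G staining and no vimentin, and substate 2 was the form with wide spaces between cells, weaker R-10G staining and vimentin. R-10G is an antibody to a keratan sulphate on pluripotent cells, and vimentin is an intermediate filament protein of mesenchymal and neural progenitor cells. Each of 3 experiments gave 1 array per substate, and the passages of substates 1 and 2 were 41 and 52 in the first, 46 and 61 in the second, 50 and 65 in the third. Substate and later passage therefore cannot be told apart. Both arrays of an experiment used the same labelled amount, 72.4, 100 and 51.4 ng in experiments 1 to 3. The cells were a single line, and the precipitate was not separated by vesicle type.

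A miRNA is a short RNA that guides Argonaute proteins to matching sites in mRNAs, mainly through its seed, bases 2 to 8. Numbers in miRBase follow the order of submission, and this range was annotated largely from deep sequencing of small RNAs in human B cells. For most of its entries little is known of targets, and many are short, rich in G and taken from within other transcripts. RNA enters exosomes selectively, and the tetranucleotide GGAG is known as a motif in miRNAs bound by hnRNPA2B1, a protein that sorts miRNAs into exosomes.

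Mature sequences were taken from RefSeq (GRCh38.p14), which matched 126 of the 142 entries. The first sequences, with the seed in capitals, are those of the miRNAs with the smallest errors, the largest differences or a signal on every array.
miR-4505: aGGCUGGGcugggacgga
miR-4507: cUGGGUUGggcugggcuggg
miR-4449: cGUCCCGGggcugcgcgaggca
miR-4478: gAGGCUGAgcugaggag
miR-4516: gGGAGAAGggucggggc
miR-4530: cCCAGCAGgacgggagcg
miR-4466: gGGUGCGGgccggcgggg
miR-4484: aAAAGGCGggagaagcccca
miR-4485-3p: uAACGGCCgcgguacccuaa
They are 17 to 22 bases long, and runs of G recur in most of them. The next set shows the entries that carry the seed of a conserved family, each followed by family members outside the range.
miR-4465: cUCAAGUAgucugaccagggga
miR-26a-5p: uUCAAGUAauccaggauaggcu
miR-26b-5p: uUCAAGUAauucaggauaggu
miR-4429: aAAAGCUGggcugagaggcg
miR-320b: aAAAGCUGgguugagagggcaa
miR-320c: aAAAGCUGgguugagagggu
miR-320d: aAAAGCUGgguugagagga
miR-4458: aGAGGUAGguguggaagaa
miR-4500: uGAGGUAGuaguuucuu
let-7a-5p: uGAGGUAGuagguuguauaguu
miR-4465 carries the miR-26 seed, miR-4429 the miR-320 seed, and miR-4458 and miR-4500 the let-7 seed.

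The genes of the 126 matched entries lay on 21 chromosomes, and 86 of the 126 lay within the span of another annotated gene. Genes whose symbol starts with MIR were left out of that count, host genes such as MIR4422HG among them. A protein-coding gene spanned 62 of the 126 entries. MIR4507, MIR4537, MIR4538 and MIR4539 lay in IGH, the immunoglobulin heavy chain locus, on chromosome 14, and MIR4476 and MIR4540 in PAX5, the gene of a B cell transcription factor, on chromosome 9. Of these 6 B cell locus entries, miR-4507 was detected on all 6 arrays and miR-4476 on 5, and the other 4 on none. MIR4507 lies at chr14:105858125-105858144 on the minus strand, and MIR4505 at chr14:73758749-73758766 on the plus strand within the span of MIDEAS. MIR4449 (chr4:52712720-52712741, plus strand) lies within DANCR, a long noncoding RNA gene. MIR4485, whose 3p arm lies at chr11:10508277-10508296 on the minus strand, is within MTRNR2L8, a nuclear copy of mitochondrial 16S ribosomal RNA, so that its probes and RNA from that mitochondrial transcript share sequence, and whether that RNA contributed to the signal was not tested.

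The 6 arrays correlated with each other at 0.936 to 0.981 over tested miRNAs. Between 310 and 594 human miRNAs were detected per array. The 99th percentile of signal ran from 475.6 on substate 1 of experiment 1 to 125.0 on substate 2 of experiment 3 in scanner units, and it was lower in substate 2 in every experiment. Of 8 miRNAs that mark pluripotent stem cells, 7 were detected on at least 1 array and 5 on all 6, with miR-372-3p at 0 arrays. Their summed signal was 854 to 1397% of the array's 99th percentile in substate 1 and 813 to 1209% in substate 2. Of 2 neural miRNAs 1 was detected, on all 6 arrays (summed signal 1.57 to 2.00% against 2.04 to 3.25%), with miR-9-5p on no array. Of 4 blood miRNAs 1 was detected, on fewer than 6 arrays, with miR-451a, miR-223-3p and miR-142-3p on none. The liver miRNA and the 3 muscle miRNAs were on none.

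Most of the range gave no signal. Feature Extraction calls a miRNA detected when at least 1 of its probes exceeds 3 times its error, and 98 of the 142 entries were detected on no array, 14 on 1 or 2, 12 on 3 to 5 and 18 on all 6. The 44 entries detected at least once made 31.0% of the range, beside 24.7% of all human miRNAs, 24.9% of those with lower numbers and 23.6% of those with higher numbers. For detection on all 6 arrays the shares were 12.7% and 11.3%. At the edges of the range, miR-4417 was detected on 5 arrays and miR-4540 on none, while the nearest entries outside, miR-4330 and miR-4632-3p, were on none and miR-4632-5p on 2. A miRNA that was undetected here was below the array's limit, which does not show that it was absent.

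Fewer entries of the range were detected in substate 2 in each experiment. In experiment 1, 41 were detected in substate 1 and 35 in substate 2. Experiment 2 gave 33 against 29, and experiment 3 gave 22 against 19. The mean difference was -4.33 ± 1.53 entries (SD, n = 3 experiments), and an exact sign-flip test over 3 experiments cannot go below p = 0.25. Over all human miRNAs the difference was -67, 5 and -22, so that experiment 2 went the other way. The direction turned with the detection call, since the entries with spots positive and significant numbered 123 and 137, 110 and 110, and 103 and 110 in substates 1 and 2 of the 3 experiments, a mean difference of 7 ± 7 (SD, n = 3). The groups overlapped because the experiments differed more than the substates. The 99th percentile was lower in substate 2 each time, and its part in the detection counts was not tested. Fewer exosomes and less of a miRNA per exosome cannot be told apart in these values.

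Of the 44 detected entries, 13 (29.5%) were detected on fewer arrays of substate 2, 4 (9.09%) on more and 27 on as many. Among all 629 miRNAs detected at least once, 22.6% were detected on fewer arrays of substate 2 and 12.9% on more, which is near the shares in the range. The 8 entries seen in substate 1 alone and the 3 seen in substate 2 alone were on 1 or 2 arrays each. They included miR-4429, miR-4430 and miR-4419a, each on the substate 1 arrays of experiments 1 and 2. Where these entries were detected, their signal was 0.225 to 0.661% of the 99th percentile of the array. These entries were too rarely detected to be tested, and their folds are not given. How many of all 629 detected miRNAs were seen in a single substate was not counted. The 8 against 3 is therefore not read as a lean of the range.

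Signals were scaled to the array's 99th percentile over all human miRNAs, and the scaled signals are given in percent of it. The 18 entries detected on all 6 arrays covered a wide span of signal, but signals of different probes were not compared as amounts. miR-4459, miR-4530, miR-4505, miR-4516, miR-4466 and miR-4507 were above 10% on every array. miR-4515, miR-4484, miR-4485-5p, miR-4485-3p, miR-4532, miR-4442, miR-4534, miR-4499, miR-4443, miR-4465, miR-4497 and miR-4433a-5p lay lower. The range made up 5.62% of the detected signal in substate 1 and 3.03% in substate 2 of experiment 1. In experiment 2 the shares were 6.23% and 5.98%, and in experiment 3 they were 6.23% and 6.47%.

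**Figure D1:**
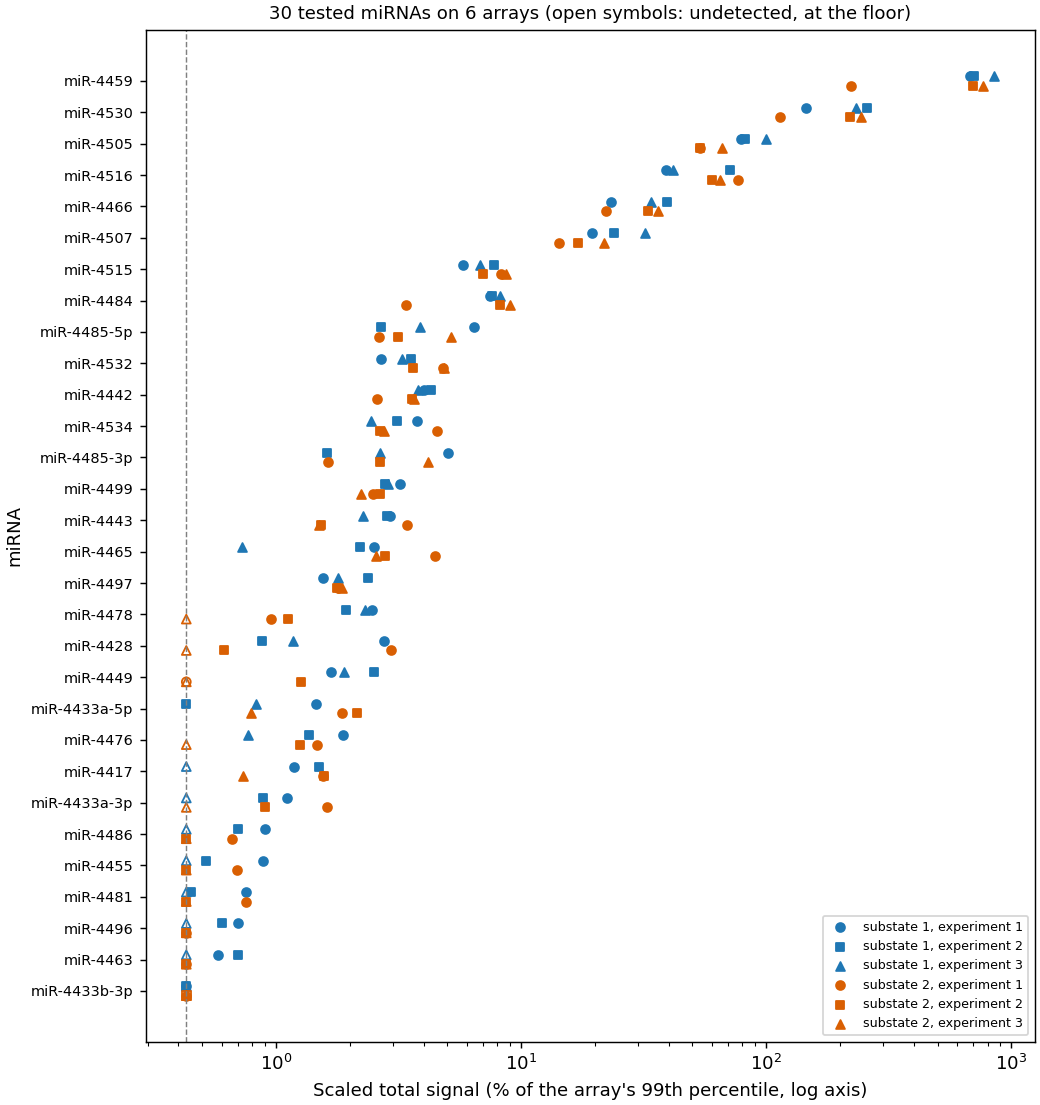
Scaled total signal of the 30 tested miRNAs on the 6 arrays, in percent of the array's 99th percentile on a log axis. Blue marks are substate 1 and orange marks substate 2, circles, squares and triangles are experiments 1, 2 and 3, open marks are arrays without detection and the dashed line is the floor of 0.431%. In miR-4505 the blue marks lie to the right of all orange marks, and miR-4459 has 1 orange circle far to the left of its other 5 marks.

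The 30 entries detected on at least 3 arrays were tested between substates, on log2 of the scaled signal, raised to a floor of 0.431%. The difference is substate 2 minus substate 1, from a limma fit with experiment as a block over all 474 miRNAs with such detection. No miRNA of the range was higher or lower at an adjusted p under 0.05 with at least a 2-fold difference, and 0% of all tested miRNAs were called in either direction. The smallest adjusted p in the range was 0.139, equal to the smallest over all tested miRNAs. At an unadjusted p under 0.05, 0 of 30 were higher and 4 were lower (13.3%), beside 9.7% and 13.3% of all tested miRNAs. These 4 were miR-4505, miR-4507, miR-4449 and miR-4478.

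By size alone, a difference of 2-fold or more was reached upwards by 0 of 30 and downwards by 2 (6.67%), beside 4.85% and 4.64% of all tested miRNAs. Of the 30, 8 were lower in all 3 experiments (26.7%, beside 23.4% of all tested) and 3 were higher in all 3 (10%, beside 21.1%). The substates did not overlap for 5 that were lower (16.7%, beside 14.1%) and 2 that were higher (6.67%, beside 11.8%). The median difference of the 30 was -0.21 on the log2 scale, with medians of -0.35, -0.23 and 0 in experiments 1 to 3 (SD 0.18). The median of all tested miRNAs was -0.01, with 0.02 in those numbered below the range and -0.12 in those numbered above. The median of the 30 depended on the processing, with -0.020 after quantile normalization, 0.019 after normexp correction and -0.75 when scaled by the labelled amount, which moved the median of all tested miRNAs to -0.51. The median over the 18 entries on all 6 arrays was -0.13, and over all 289 such miRNAs it was -0.05. In 23 of 30 entries the difference was within 0.5, a share that was not set beside that of all tested miRNAs. The median standard error was 0.18 in the range and 0.20 over all tested miRNAs. Of the 180 values, 32 were at the floor, and these belonged to 13 entries, whose differences depend on where the floor lies.

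**Figure D2:**
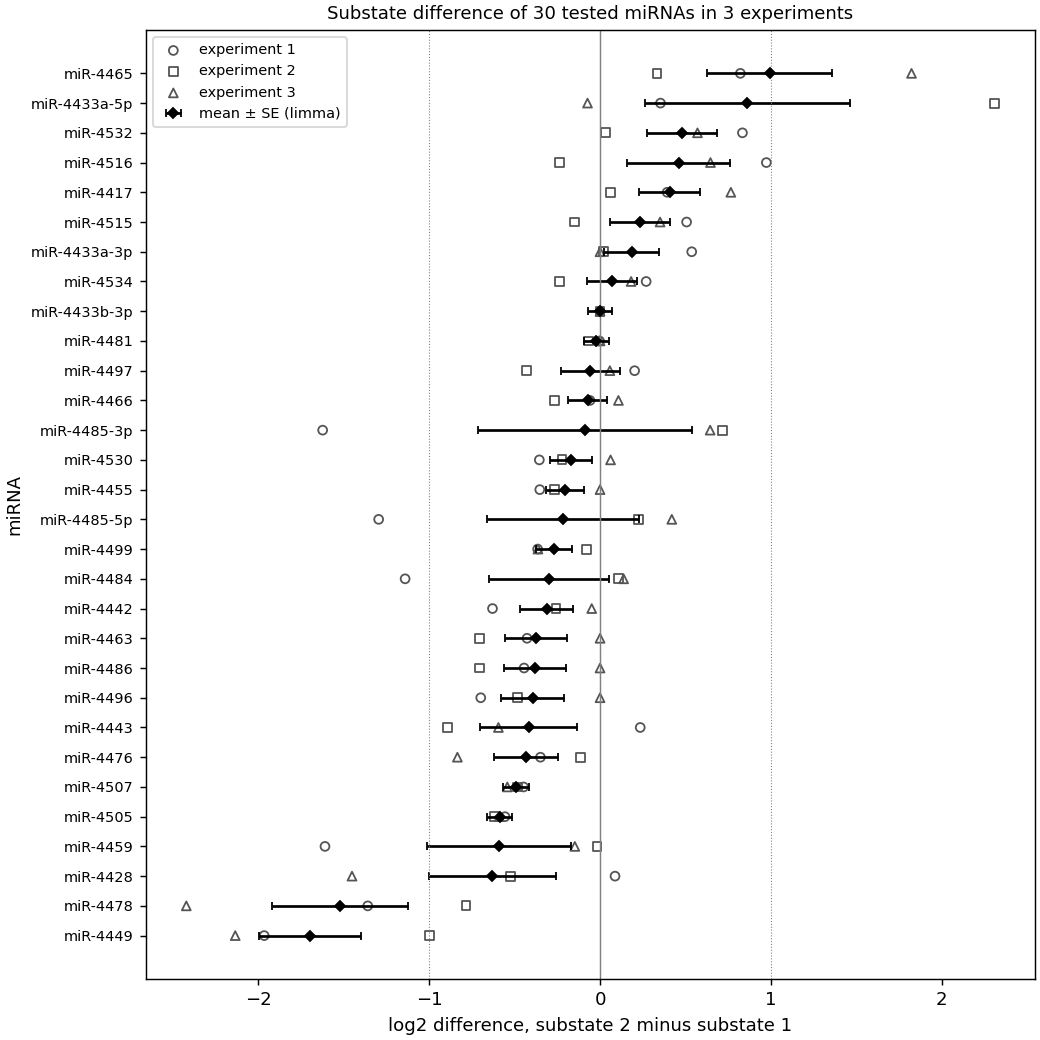
log2 difference, substate 2 minus substate 1, of the 30 tested miRNAs. Open marks are the 3 experiments, filled diamonds the mean with its limma standard error, and dotted lines mark a 2-fold difference. miR-4505 and miR-4507 have 3 marks close together at a mean of -0.59 and -0.49, and miR-4485-3p, miR-4485-5p, miR-4484 and miR-4459 each have experiment 1 far to the left.

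Among the entries detected on all 6 arrays, the difference with the smallest standard error was that of miR-4505. Its scaled signal was 78.9, 82.2 and 99.8% in substate 1 and 53.7, 53.6 and 66.3% in substate 2 of experiments 1 to 3. All 3 substate 1 arrays were above all substate 2 arrays. The differences of -0.56, -0.62 and -0.59 gave a mean of -0.59 ± 0.07 (SE, n = 3 experiments), with a limma adjusted p of 0.139, which misses the threshold. Nearly all of this signal came from 1 of the 2 miR-4505 probes, at 77.1, 80.8 and 98.3% in substate 1. The other probe was at 1.81, 1.42 and 1.47% there, and its differences were -0.50, -0.44 and -0.35.

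miR-4507, from the IGH locus, behaved in the same manner. It was at 19.4, 23.9 and 31.9% in substate 1 and at 14.3, 17.1 and 21.9% in substate 2. Substate 2 was the lower of the pair in each experiment, although the groups overlapped, since the experiments differed in level. The mean difference was -0.49 ± 0.07 (SE, n = 3; limma adjusted p = 0.164), with -0.45, -0.48 and -0.54 in the experiments. Both miRNAs kept their direction under every alternative setting tried, although settings that changed only the filter or the block could not turn it.

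**Figure D3:**
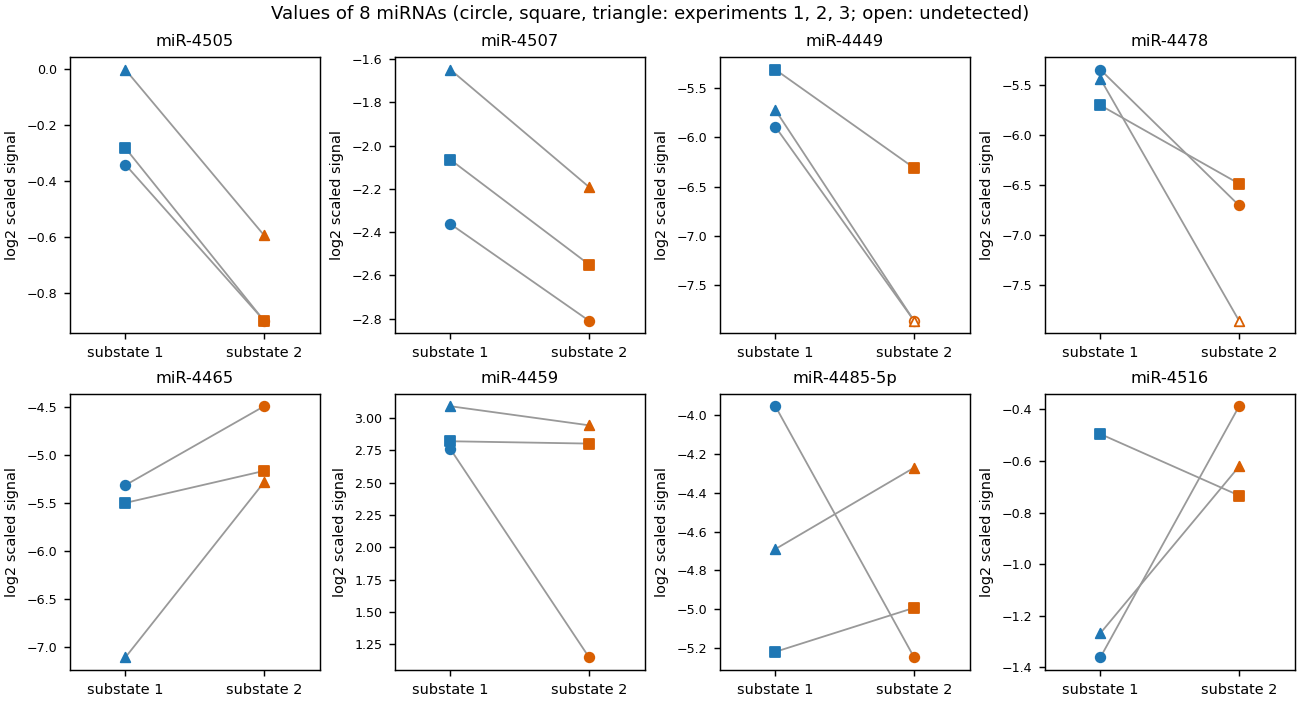
log2 of the scaled signal for 8 miRNAs in substate 1 (blue) and substate 2 (orange), with lines joining the arrays of an experiment. Circles, squares and triangles are experiments 1, 2 and 3, open marks are undetected values at the floor, and each panel has its own vertical axis. miR-4505, miR-4507, miR-4449 and miR-4478 fall and miR-4465 rises in all 3 lines, whereas miR-4459, miR-4485-5p and miR-4516 have 1 line unlike the other 2.

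miR-4505 and miR-4507 share the stretch GGGCUGGG, which was looked for after their values were seen and so supports nothing. It occurs in 13 of the matched human miRNAs on the strand of the miRNA (0.578%), of which 3 are in the range and the third, miR-4492, was undetected. Detection was on all 6 arrays for 10 of these and on none for 3. Of the 10, 7 were lower in substate 2 in all 3 experiments and 0 were higher in all 3, with differences between -0.99 and 0.14. Over all tested miRNAs 23.4% were lower and 21.1% higher. The 7 include miR-4505 and miR-4507, which led to the search, so their number cannot be read against these shares. miR-5787, which shares both this stretch and the seed of miR-4505, had a difference of -0.04 ± 0.15 (SE, n = 3). Probes for miRNAs that share a stretch may bind each other's targets, and this was not tested.

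The largest differences were at low signals. miR-4449, from within DANCR, was at 1.68, 2.51 and 1.89% in substate 1. In substate 2 it was detected in experiment 2 alone, at 1.26%. The groups did not overlap, and with undetected arrays at the floor the difference was -1.70 ± 0.30 (SE, n = 3; limma adjusted p = 0.164). When all probes were summed whatever their error, its differences were -1.97, -0.996 and -1.34.

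miR-4478 was at 2.46, 1.92 and 2.31% in substate 1. In substate 2 it was at 0.959 and 1.12% in experiments 1 and 2 and undetected in experiment 3. Substate 2 was below every substate 1 array, and the difference was -1.52 ± 0.40 (SE, n = 3; limma adjusted p = 0.203). From all probes the differences were -1.36, -0.79 and -1.35, whereas with the floor the value of experiment 3 was -2.42. Under normexp background correction with an offset of 50, miR-4449 and miR-4478 came to 0.0020 and 0.0099. Their signals are far below that offset, and its part in these values was not tested.

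miR-4442, from within the span of TOP2B, which encodes a DNA topoisomerase, and miR-4499 were also lower without overlap. miR-4442 was at 4.02, 4.30 and 3.80% against 2.60, 3.59 and 3.67%, a difference of -0.31 ± 0.16 (SE, n = 3). miR-4499 was at 3.21, 2.80 and 2.87% against 2.49, 2.65 and 2.23%, a difference of -0.27 ± 0.11 (SE, n = 3). Their adjusted p-values in limma were 0.297 and 0.255, and in normexp values both turned to the other direction (0.077 and 0.053). miR-4476, from PAX5, was lower in all 3 experiments by -0.43 ± 0.19 (SE, n = 3; limma adjusted p = 0.274). Its value of -0.83 in experiment 3 set an undetected substate 2 array at the floor. From all probes that value was -0.36 and the mean was -0.27.

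miR-4465 had the largest higher value in substate 2. It was at 2.51, 2.21 and 0.725% in substate 1 and at 4.44, 2.78 and 2.57% in substate 2. All substate 2 arrays were above all substate 1 arrays. The difference was 0.99 ± 0.36 (SE, n = 3; limma adjusted p = 0.241), with 0.82, 0.33 and 1.82 in the experiments. Before scaling, its total signal was 11.9 in both substates of experiment 1 and 7.84 in both of experiment 2. The differences of 0.82 and 0.33 thus appeared only after scaling. In experiment 3 the unscaled signal was 1.30 in substate 1 and 3.21 in substate 2. The mean was 0.43 when scaled by the labelled amount.

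The value of experiment 3 depended on a probe limit. Of its 2 probes, 1 fell below 3 errors on the substate 1 array and was left out of the total signal. With both probes summed the difference in experiment 3 was 1.09, and the mean was 0.75 (limma adjusted p = 0.157). The seed relatives miR-26a-5p and miR-26b-5p had differences of 0.74 ± 0.20 and 1.14 ± 0.48 (SE, n = 3; limma adjusted p = 0.203 and 0.274), and miR-1297, of the same seed, was undetected. These family values came from the same arrays and were not called either.

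Of the other values above 0, miR-4532 was the second without overlap, at 2.69, 3.54 and 3.27% in substate 1 and 4.80, 3.63 and 4.86% in substate 2. Its difference was 0.48 ± 0.20 (SE, n = 3; limma adjusted p = 0.274), but it turned to -0.081 when scaled by the labelled amount. miR-4417 was higher in all 3 experiments (0.41 ± 0.18, SE, n = 3; limma adjusted p = 0.274) and came to -0.0021 under that scaling. miR-4433a-5p had a mean of 0.86 ± 0.60 (SE, n = 3), which came from experiment 2 with 2.31, against 0.35 and -0.07 in the others. In experiment 2 its substate 1 array was raised from 0.287% to the floor, and the sum of both its probes, 0.429%, was below the floor too.

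miR-4516, from within PKD1, the polycystin gene, went both ways. It was at 38.9, 70.9 and 41.5% in substate 1 and 76.4, 60.1 and 65.0% in substate 2. The groups overlapped through experiment 2, and the mean was 0.46 ± 0.30 (SE, n = 3; limma adjusted p = 0.392), or -0.10 when scaled by the labelled amount. Of the entries with its seed, miR-5703 had a difference of -0.09 ± 0.19 (SE, n = 3) and miR-4434, also in the range, was undetected.

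The remaining bright entries, miR-4530 and miR-4466, varied between experiments more than between substates. miR-4530 was at 145, 258 and 233% in substate 1 and 113, 221 and 243% in substate 2, a difference of -0.17 ± 0.12 (SE, n = 3). miR-4466, from within ARID1B, a chromatin remodelling gene, was at 23.2, 39.5 and 33.7% against 22.3, 32.8 and 36.4%, a difference of -0.07 ± 0.11 (SE, n = 3). Both miRNAs were lower in experiment 1 than in experiments 2 and 3 in either substate.

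In experiment 1 alone, 4 entries were far lower in substate 2. miR-4459, the entry of the range with the highest signal, was at 677, 706 and 851% in substate 1 and at 222, 697 and 769% in substate 2. The substate 2 array of experiment 1 stood below the 5 others, and the difference was -1.61 there and -0.02 and -0.15 in experiments 2 and 3. Its mean was -0.59 ± 0.42 (SE, n = 3; limma adjusted p = 0.411) and fell to -0.08 ± 0.08 without experiment 1.

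miR-4484, from within UROS, which encodes a heme synthesis enzyme, was at 7.47, 7.62 and 8.22% in substate 1 and 3.39, 8.22 and 9.04% in substate 2. miR-4485-3p was at 5.03, 1.62 and 2.66% against 1.63, 2.65 and 4.16%, and miR-4485-5p at 6.46, 2.68 and 3.87% against 2.63, 3.14 and 5.18%. The differences in experiment 1 were -1.14 for miR-4484, -1.62 for miR-4485-3p and -1.30 for miR-4485-5p. In experiments 2 and 3 they were 0.11 and 0.14, 0.71 and 0.64, and 0.23 and 0.42 in the same order. Without experiment 1 the means were 0.12 ± 0.06, 0.68 ± 0.07 and 0.32 ± 0.10 (SE, n = 2 experiments), with limma adjusted p-values of 0.505, 0.303 and 0.430. The arms of the MIR4485 hairpin moved alike in all 3 experiments. For miR-4485-3p, 1 of its 2 probes fell below 3 errors on at least 1 array of each experiment. With both probes summed its differences were -1.45, 0.53 and 0.64 in experiments 1 to 3. Experiment 1 was on another slide, with another Feature Extraction version and the earliest passages, and these cannot be told apart.

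Of the entries not yet described, miR-4515, miR-4534, miR-4497, miR-4443 and miR-4428 moved in different directions between experiments. miR-4428 was at 2.77, 0.881 and 1.18% in substate 1 and 2.94 and 0.612% in experiments 1 and 2 of substate 2, with no detection in experiment 3. miR-4443 differed by 0.24, -0.89 and -0.60 in experiments 1 to 3. Their mean differences were -0.63 ± 0.37 and -0.42 ± 0.28 (SE, n = 3), and those of miR-4515, miR-4534 and miR-4497 were 0.24, 0.07 and -0.06. The 7 others, miR-4433a-3p, miR-4433b-3p, miR-4455, miR-4463, miR-4481, miR-4486 and miR-4496, were undetected on both arrays of experiment 3. miR-4433a-3p and miR-4433b-3p come from opposite strands of one locus on chromosome 2 and resemble each other, so that their signals may not be separate.

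The error that Feature Extraction gave a total signal had a median of 9.77% over the pairs of arrays where both detected an entry of the range. Of 76 such pairs, 21 differed by more than 3 combined errors. This was not counted over all tested miRNAs, so it is not read as a trait of the range. For miR-4459 in experiment 1 the difference was -8.67 errors, and for miR-4505 it was -2.71, -2.96 and -2.84 errors in the 3 experiments. This error covers the spots of 1 array and no biological spread.

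Of the 126 entries with a sequence, 39 shared their seed with another human miRNA of the array, 35 of them with an entry outside the range. Of these 39, 14 were detected at least once and 25 were not. The let-7 seed entries miR-4458 and miR-4500 were on no array, and neither were the 9 other miRNAs with that seed, from let-7a-5p to miR-98-5p. The let-7 family is known to be processed poorly in pluripotent cells, where LIN28 blocks its maturation. miR-4429 was at 0.227 and 0.329% in substate 1 of experiments 1 and 2, while miR-320b, miR-320c and miR-320d were detected on all 6 arrays with differences of 0.52 ± 0.21, -0.33 ± 0.11 and 0.72 ± 0.20 (SE, n = 3). miR-3940-5p, with the seed of miR-4507, had a difference of -0.02 ± 0.15 (SE, n = 3). The differences between seed partners were not tested.

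Detected entries of the range were rich in G and C and short. The values cover the entries with a sequence, 91 of 98 on no array, 21 of 26 on 1 to 5 arrays and 14 of 18 on all 6. Of the 16 entries without a sequence 9 were detected, miR-4459 among them. The median GC content was 47.6% in the entries detected on no array, 63.6% in those on 1 to 5 arrays and 71.4% in those on all 6. Over all human miRNAs the same medians were 50.0, 57.1 and 60.9%. The median length was 22 bases for undetected entries and 18 for those on all 6 arrays. It was 22 in both classes over all human miRNAs and in the entries with higher numbers. The run GGG was in 42.9% of the range and in 85.7% of its entries on all 6 arrays, beside 32.7% and 56.2% over all human miRNAs. The shares were 36.9% and 77.2% in the entries with higher numbers, and 29.5% and 42.3% in those with lower numbers. The longer run GGGG did not set the range apart in the same way. It was in 28.6% of the range's entries on all 6 arrays, beside 29.3% over all human miRNAs in that class. In that class it was in 51.9% of the entries with higher numbers and 17.4% of those with lower numbers.

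The share detected at least once rose with GC content. In the range it was 0 of 19 entries under 40% GC, 6.67% of 30 entries from 40 to under 50%, 20.6% of 34, 54.2% of 24 and 68.4% of 19 at 70% or more. In the other human miRNAs the shares were 13.0, 19.0, 21.1, 30.7 and 50.7%. The range thus lay below the other miRNAs at low GC and above them at high GC. GC content also affects how firmly a probe binds, and its part in the detection was not tested.

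**Figure D4:**
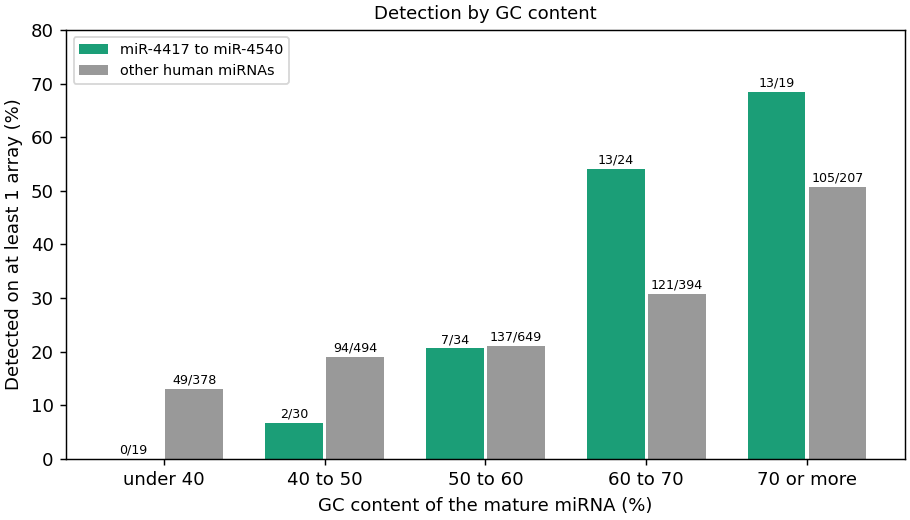
Percent of miRNAs detected on at least 1 of 6 arrays, by GC content of the mature sequence, for miR-4417 to miR-4540 (green) and the other human miRNAs (grey). Numbers above the bars are detected over matched miRNAs, and the green bars rise from 0 of 19 to 13 of 19.

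GGAG was in 24 of the 126 entries (19.0%), beside 15.9% of all matched human miRNAs. It was in 8.79% of the entries detected on no array and in 50% of those on all 6, beside 11.9% and 28.5% of the other human miRNAs in these classes. Among these others the shares were 14.4% and 49.4% in entries with higher numbers, and 10.3% and 17.4% in those with lower numbers. Of the entries with GGAG, 66.7% were detected at least once, against 18.6% of those without. The order was the same within classes of GC content. At 60% GC or more, 12 of 14 entries with GGAG (85.7%) and 14 of 29 without it (48.3%) were detected. Below 60%, 4 of 10 (40%) and 5 of 73 (6.85%) were. In the other human miRNAs the shares with and without GGAG were 53.4% and 32.5% at 60% GC or more, and 33.9% and 16.3% below. None of these shares was tested. They describe the sequences of detected miRNAs, and no cellular miRNAs were analysed here with which to compare the exosomes.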

How the data were processed

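The authors hybridised Cy3-labelled exosomal miRNA to Agilent 1-colour arrays and deposited, per array, Feature Extraction output with the signal intensity of each spot and a total signal per miRNA (version 12.0.3.2 for experiment 1 on slide 1, 11.5.1.1 for experiments 2 and 3 on slide 2, per the file headers). The authors' processed log2 values are deposited too and served as an alternative. The total signal was checked to equal the sum of the probes over 3 errors in 2698 of 2698 detected values (relative tolerance 0.001).

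Total signals were divided by the array's 99th percentile over 2549 human miRNAs, raised to a floor (the highest of the 6 arrays' lowest detected scaled signals) and taken to log2. The 474 miRNAs detected on at least 3 of 6 arrays entered a two-sided fit in limma 3.58.1 (R 4.3.3) that blocked on experiment, with Benjamini-Hochberg adjustment over all 474. The experiment numbers of the labels and the study's paired test gave the pairing. Deviations of paired arrays correlated at 0.674, 0.0307 and 0.517. The fit was tested on simulated data. Because 6 arrays were used, their number limits the precision.

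The text names entries detected on all 6 arrays, the 10 tested entries with the largest differences, entries that share a seed with them and those at the range's edges. miR-4454, also on that list, was not analysed here. Sequences missing from RefSeq include miR-4459, miR-4532, miR-4433a-5p, miR-4485-5p and miR-4417. The members and lists were chosen with earlier results of these data known. The sum over all probes was added after values were seen, as was the search for GGGCUGGG. Tried alternatives concerned scaling, floor, background correction, detection, filters, blocks and experiments left out.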

Additional observations from a re-analysis of the deposited data

How the results depend on the processing

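No entry of the range was called under any alternative. Over all tested miRNAs, the filter on detection on all 6 arrays called 5 higher and 2 lower. Without the experiment as a replicate block, 1 miRNA outside the range was called lower and 0 entries of the range were called. The median difference of the tested entries was -0.21, which equals the paired analysis by design, since each experiment holds both substates. The median difference of the 30 tested entries was -0.020 after quantile normalization, -0.75 when scaled by the labelled amount (all tested miRNAs -0.51) and 0.019 after normexp correction (all tested miRNAs 0.024), and it lay between -0.26 and -0.08 when 1 experiment was left out. The mean difference in detected entries, -4.33, became 7 ± 7 (SD, n = 3) when spots positive and significant counted as detected and -8 ± 4.36 when a total signal of at least 1 did, and it lay between -5 and -3.5 with 1 experiment left out. Of 304 values of the 22 named entries under alternatives, 282 kept their direction and 22 turned. The 282 include settings that changed only the filter or the block. With both substates in each experiment and slide, those settings leave every difference as it was, so their values could not turn. Quantile normalization turned miR-4466 (0.033). The labelled amount turned miR-4417 (-0.0021), miR-4515 (-0.32), miR-4516 (-0.10), miR-4532 (-0.081) and miR-4534 (-0.49). The deposited values turned miR-4534 (-0.034). Normexp turned miR-4442 (0.077), miR-4443 (0.029), miR-4449 (0.0020), miR-4478 (0.0099), miR-4484 (0.11), miR-4485-3p (0.13), miR-4485-5p (0.13), miR-4497 (0.037) and miR-4499 (0.053). With 1 experiment left out, values lay between -0.52 and 0.12 for miR-4484, -0.49 and 0.68 for miR-4485-3p, -0.53 and 0.32 for miR-4485-5p, and -0.027 and 0.23 for miR-4534, where leaving out experiment 1 turned them. They lay between -0.16 and 0.024 for miR-4466 and -0.19 and 0.13 for miR-4497, where leaving out experiment 2 did. The normexp offset of 50 exceeds most of these signals, and its part in the turned directions was not tested. For the other settings the cause was not tested either. Entries near the floor are limited by signal over background.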
